A study of Rattus norvegicus with 9 samples.

Results

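The nuclear-encoded genes of the mitochondrial respiratory chain were followed in the dorsal root ganglia, which hold the cell bodies of sensory neurons, of male rats (Sprague-Dawley). The 9 RNA-seq libraries fall into 3 groups of 3: SCI (spinal cord injury), sham (control operation) and naive (no operation). The labels give 30 days after injury for all 9. Ganglia of the lower thoracic and the lumbar levels were taken from both sides. No transgene, drug or strain difference is labelled, and the labels do not say whether a library is 1 rat or a pool. Members had a symbol matching subunit names and reached a CPM of 1 in at least 3 of the 9 libraries. Nduf with a, b, c, s or v stood for complex I, Sdha to Sdhd for complex II and Uqcr for complex III. Cox4 to Cox8 stood for complex IV and Atp5 for complex V. CPM is a gene's share of its library's counts, scaled to a common total. Of 30446 genes in the count table, 85 carried such a symbol and 74 met the level: 33 in complex I, 4 in complex II, 7 in complex III, 14 in complex IV and 16 in complex V. The symbol Cox6b1 stands on 2 identifiers, so the 74 members have 73 distinct symbols.

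Complexes I to IV pass electrons along the inner mitochondrial membrane and complexes I, III and IV pump protons across it. Complex V, the ATP synthase, lets the protons flow back and makes ATP. Sensory neurons depend on this ATP for their ion pumps and for transport along axons that reach the skin and the spinal cord. A few catalytic subunits come from mitochondrial DNA, and the members described here are made from nuclear genes and imported.

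The promoters of 7 members are printed as examples of genes that rose and of genes that did not pass: Atp5i, Cox5b, Uqcrh and Ndufb7 rose in SCI and in sham ganglia against naive ganglia, and Sdha, Atp5a1 and Uqcrc2 passed the test in neither comparison. Each line gives the 120 bases before the annotated start, 5′ to 3′ on the gene's strand, from the RefSeq promoter table on build GRCr8. Capitals mark the letters of the NRF1 motif or of the ETS motif, named for factors known to bind promoters of respiratory genes. The windows were chosen after the values were seen, and each of the 7 holds a match.
Atp5i, chr14:1464740-1464859, plus strand: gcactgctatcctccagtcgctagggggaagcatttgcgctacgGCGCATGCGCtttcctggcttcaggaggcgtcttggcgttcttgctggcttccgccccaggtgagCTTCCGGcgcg
Cox5b, chr9:46417717-46417836, plus strand: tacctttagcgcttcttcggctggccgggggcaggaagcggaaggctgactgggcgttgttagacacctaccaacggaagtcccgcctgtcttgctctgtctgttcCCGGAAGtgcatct
Uqcrh, chr5:134790883-134791002, minus strand: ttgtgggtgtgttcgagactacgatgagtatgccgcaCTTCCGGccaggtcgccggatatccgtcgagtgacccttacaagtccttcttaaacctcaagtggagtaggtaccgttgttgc
Ndufb7, chr19:41477292-41477411, minus strand: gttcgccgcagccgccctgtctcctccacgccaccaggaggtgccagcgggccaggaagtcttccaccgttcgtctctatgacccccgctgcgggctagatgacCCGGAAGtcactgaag
Sdha, chr1:30764433-30764552, plus strand: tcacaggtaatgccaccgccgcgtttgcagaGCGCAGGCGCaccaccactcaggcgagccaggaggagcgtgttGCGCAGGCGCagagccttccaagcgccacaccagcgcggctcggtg
Atp5a1, chr18:73567417-73567536, plus strand: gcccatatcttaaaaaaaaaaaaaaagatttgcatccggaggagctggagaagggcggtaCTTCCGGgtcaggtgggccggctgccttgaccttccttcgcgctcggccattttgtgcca
Uqcrc2, chr1:184599120-184599239, plus strand: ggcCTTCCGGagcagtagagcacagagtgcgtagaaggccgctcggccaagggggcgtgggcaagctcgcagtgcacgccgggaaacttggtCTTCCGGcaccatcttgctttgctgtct
These 7 windows are examples and do not show how often a motif occurs among members that rose or did not pass.

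RefSeq promoters of 300 bases, 250 before to 50 after the start, were matched for 64 of the 74 members and scanned on both strands; those without a match included Ndufa8, Ndufb9, Uqcrb, Cox4i2, Cox6a1, the second Cox6b1, Cox6c, Atp5h and Atp5sl. No matched member had matches of different motifs that shared bases. Any of the motifs below was found in 47 of the 64 promoters. The ETS letters CCGGAAG stood in 19 of the 64 member promoters (29.7%), against 11.2% of the 19005 promoters of all protein-coding genes in the table. The YY1 letters AANATGGCG stood in 16 (25%, against 4%), and the NRF1 letters, GCGCA and any base and then GCGC, in 11 (17.2%, against 6.09%). The SP1 letters GGGCGGG stood in 15 (23.4%, against 30.7%), and the ESRRA letters TNAAGGTCA in 2 (3.12%, against 0.994%). Complex IV had no NRF1 or YY1 match among its 10 matched promoters and had 4 ETS matches, while 10 of 30 complex I promoters held the YY1 letters. The median log2 change of SCI against naive was 0.52 over members with the ETS letters and 0.41 over members without them. For the YY1 letters the same medians were 0.56 with and 0.41 without, for the NRF1 letters 0.35 with and 0.49 without, and for the SP1 letters 0.31 with and 0.48 without. These are descriptions of letters in 1 window, with no test, and the motifs were picked after the values were seen.

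Library totals ran from 16724878 to 32060538 counts, and the member with the fewest had 36 counts in its lowest library. On the first principal component, which held 59.3% of the variance, the naive libraries lay at -43.5 to -41.6 and the other 6 at 14.2 to 25.7. No label gives a batch, so the operation and injury cannot be told apart from a batch that holds only naive libraries. Members took 1.46% to 1.53% of all counts in SCI libraries and 1.47% to 1.64% in sham libraries, against 1.13% to 1.15% in naive libraries. The sum over the 74 members, in CPM scaled by TMM factors, was 14898 ± 440 in SCI, 15699 ± 705 in sham and 11329 ± 166 in naive ganglia (SD, n = 3 each), and no SCI or sham library overlapped a naive library. In bulk tissue, more or fewer cells of a type and more or less RNA per cell cannot be told apart.

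In SCI ganglia most members were higher than in naive ganglia. With edgeR's quasi-likelihood test on all 16627 genes (adjusted p under 0.05), 61 of 74 members rose, where 23.9% of all genes were called higher. Only Atp5s fell, where 24.6% of all genes were called lower, and 12 members did not pass. The median log2 change was 0.43 over members and 0.01 over all genes. By complex, 27 of 33 members rose in complex I, 3 of 4 in complex II, 4 of 7 in complex III, 13 of 14 in complex IV and 14 of 16 in complex V. The median log2 change was 0.51 in complex I, 0.25 in complex II, 0.23 in complex III, 0.67 in complex IV and 0.41 in complex V.

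Sham ganglia set against the same 3 naive libraries gave a list of its own, which is not independent of the SCI list. Here 64 of 74 members rose, where 24.7% of all genes were called higher, and none fell by edgeR's test, where 25.9% of all genes were called lower. At an unadjusted p under 0.05 the count of members lower was also 0 (28.7% of all genes), and DESeq2 called 65 members in either direction (48.4% of all genes). The median log2 change was 0.52 over members and 0.00 over all genes. All 14 members of complex IV rose, with 28 of 33 in complex I, 3 of 4 in complex II, 5 of 7 in complex III and 14 of 16 in complex V. The medians were 0.56, 0.27, 0.29, 0.74 and 0.49 on the log2 scale for complexes I to V.

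**Figure D1:**
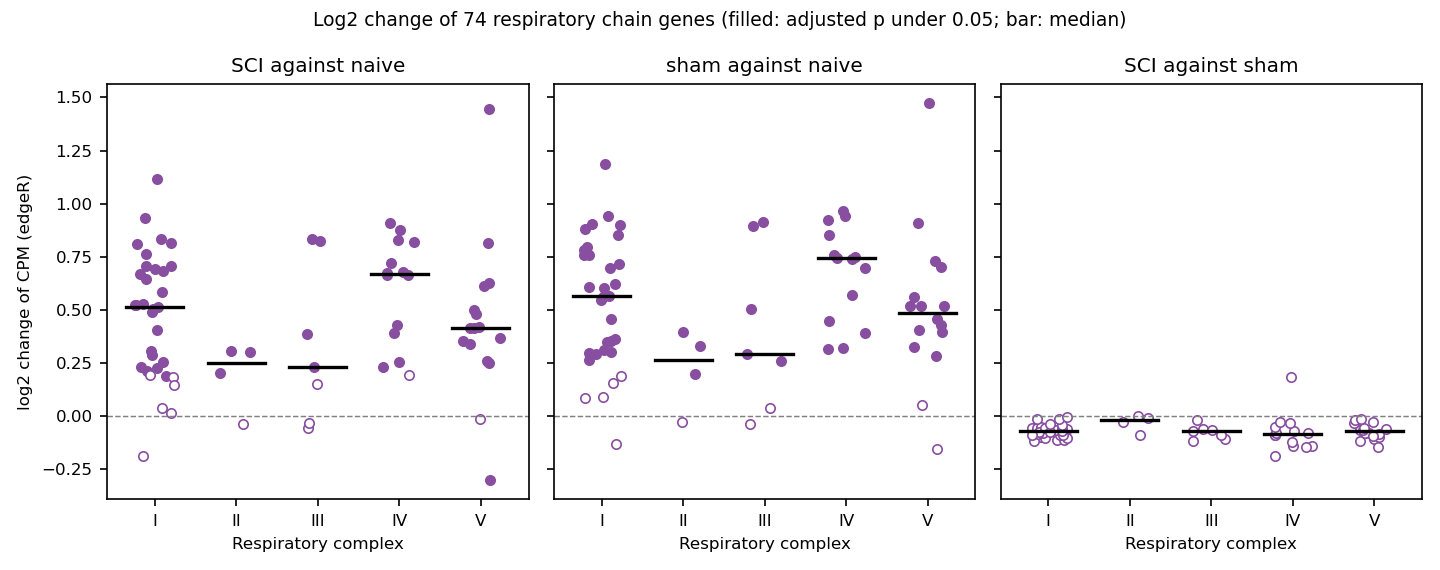
Log2 change of CPM (edgeR) for each of the 74 members by respiratory complex in 3 comparisons; filled points passed an adjusted p under 0.05 and bars are medians. Members of complex IV have medians of 0.67 and 0.74 against naive, and all points of SCI against sham are open.

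Complex I takes electrons from NADH, and its 2 largest changes in each comparison with naive were in Ndufc1 and Ndufb1 of the membrane arm. Ndufc1, a small membrane-arm subunit, had 48.2, 47.6 and 50.2 CPM in SCI libraries and 43.8, 53.9 and 56.0 CPM in sham libraries, against 22.1, 24.4 and 20.8 CPM in naive libraries. No SCI or sham library overlapped a naive one. The log2 change was 1.12 (SE 0.09) for SCI against naive and 1.19 (SE 0.09) for sham against naive (edgeR adjusted p = 1.78e-06 and 9.2e-07). Ndufb7, which faces the intermembrane space, had 106, 112 and 116 CPM in SCI libraries and 118, 114 and 125 CPM in sham libraries, against 69.2, 70.2 and 68.0 CPM in naive libraries. Its log2 change was 0.69 for SCI and 0.78 for sham, both against naive (SE 0.06 each, edgeR adjusted p = 3.26e-06 and 1.05e-06). Ndufb10, another membrane-arm subunit, had log2 changes of 0.71 in SCI and 0.76 in sham. Ndufb1, a further one, had 0.93 and 0.94 with larger SEs of 0.17 each. The count table types Ndufb1 as a long noncoding RNA, and Ndufc1, Ndufb7 and Ndufb10 as protein coding. Sham 1 was the lowest sham library for Ndufb1, with 41.5 CPM beside 63.9 and 78.5 CPM, and still lay above the naive range of 28.3 to 35.7 CPM.

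The 20 members of the membrane arm and those not placed in an arm had a median log2 change of 0.61 in SCI (17 rose) and 0.71 in sham (18 rose), both against naive. Of all genes tested, 23.9% were called higher in SCI and 24.7% in sham. The N module binds NADH, and its 8 members had medians of 0.36 in SCI and 0.42 in sham, with 5 rising in each. The Q module passes electrons to ubiquinone, and all 5 of its members rose in each comparison, with medians of 0.31 and 0.37. The parts also differed between sham libraries. Summed levels in sham 1 and sham 3 were 2394 and 2759 CPM for the membrane arm and others. They were 1151 and 1191 CPM for the N module and 738 and 725 CPM for the Q module. The part of this spread in the medians was not tested. Within the N module the members differed widely. Ndufa2 and Ndufa6, accessory subunits, rose by 0.83 and 0.82 on the log2 scale in SCI and by 0.91 and 0.88 in sham.

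Ndufs1, the largest subunit and a carrier of iron-sulfur clusters, had 213, 216 and 210 CPM in SCI libraries and 242, 230 and 193 CPM in sham libraries, against 245, 249 and 234 CPM in naive libraries. All SCI libraries lay below all naive libraries and the sham range overlapped the naive one. The log2 change was -0.19 (SE 0.08) in SCI and -0.13 (SE 0.08) in sham and did not pass (edgeR adjusted p = 0.0634 and 0.182). Without sham 1 the log2 change of Ndufs1 passed in both (adjusted p = 0.017 in SCI and 0.0266 in sham, edgeR), and without sham 3 it passed in SCI (adjusted p = 0.00754). Ndufv1, which binds NADH and the flavin, had 182, 198 and 196 CPM in SCI libraries and 215, 192 and 191 CPM in sham libraries, against 185, 189 and 188 CPM in naive libraries. SCI overlapped naive, sham lay above it, and neither change passed (0.04 and 0.09, SE 0.07 each).

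Core subunits are those shared with bacterial enzymes. Of the 7 nuclear-encoded core subunits of complex I, 5 rose in each comparison, and the median log2 change of the 7 was 0.21 in SCI and 0.30 in sham. Of 24 accessory subunits, counted without Ndufa4 and Ndufa4l2, 21 rose in each, with medians of 0.55 and 0.66. Beside these, 23.9% of all genes were called higher in SCI and 24.7% in sham. The split into core and accessory subunits was made after the values were seen and has no test. The part of differences between sham libraries in this split was not tested. Ndufs8 and Ndufs7, the core subunits that carry iron-sulfur clusters near ubiquinone, rose by 0.52 and 0.49 in SCI and by 0.56 and 0.60 in sham. Ndufv2 and Ndufs3, also core subunits, rose by 0.21 and 0.19 in SCI. The SCI call of Ndufv2 was lost without naive 2, naive 3, SCI 2 or SCI 3 (edgeR adjusted p up to 0.175), and that of Ndufs3 without naive 1, naive 2, naive 3 or SCI 3 (up to 0.137). Ndufs4, Ndufa9 and Ndufb5, accessory subunits, did not pass in either comparison, with log2 changes of 0.14, 0.02 and 0.19 in SCI and of 0.16, 0.09 and 0.19 in sham. Without sham 1 the log2 change of Ndufs4 passed in both (edgeR adjusted p = 0.043 and 0.0115), as did that of Ndufb5 (0.0137 and 0.00163), and without sham 3 both passed in SCI (0.04 and 0.0248). The sham change of Ndufs4 also passed under upper-quartile scaling (edgeR adjusted p = 0.0393) and with DESeq2 (0.0428).

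**Figure D2:**
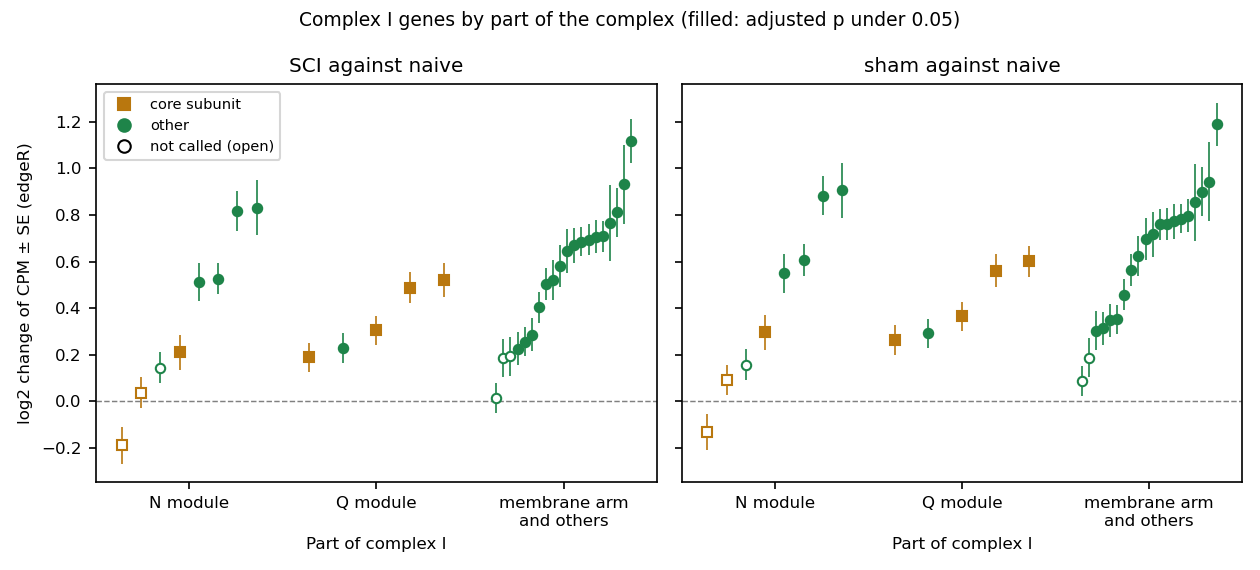
Log2 change ± SE (edgeR) of the 33 complex I members by arm of the complex, for SCI against naive at left and sham against naive at right; filled symbols passed an adjusted p under 0.05 and squares are core subunits. Ndufs1 is the lowest point in each panel (-0.19 and -0.13) and Ndufc1 the highest (1.12 and 1.19).

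Ndufa4 and its paralog Ndufa4l2 are grouped here by symbol with complex I, although the Ndufa4 protein is now counted with complex IV. Ndufa4 had 163, 170 and 175 CPM in SCI libraries and 158, 191 and 199 CPM in sham libraries, against 144, 157 and 143 CPM in naive libraries, and no SCI or sham library lay below the naive maximum. Its log2 change was 0.30 (SE 0.08) in sham and passed (edgeR adjusted p = 0.00827), while 0.19 (SE 0.08) in SCI did not (0.0706). The difference between SCI and sham was -0.11 and did not pass. In SCI, Ndufa4 passed without sham 1 (edgeR adjusted p = 0.0111) or sham 3 (0.0252). Ndufa4l2, a paralog known to be induced by low oxygen, rose in both, with 3.82 to 4.05 CPM in SCI libraries and 3.67 to 5.16 CPM in sham libraries, against 2.05 to 2.46 CPM in naive libraries.

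Complex II is succinate dehydrogenase and is the 1 complex with all its subunits encoded in the nucleus. Sdha, the flavin-carrying catalytic subunit, had 275, 281 and 272 CPM in SCI libraries and 296, 270 and 267 CPM in sham libraries, against 282, 283 and 285 CPM in naive libraries. The log2 change was -0.04 in SCI and -0.03 in sham (SE 0.06 each) and did not pass (edgeR adjusted p = 0.65 and 0.72). Its partner Sdhb, the iron-sulfur subunit, rose, with 154, 152 and 162 CPM in SCI libraries and 163, 157 and 156 CPM in sham libraries, against 128, 128 and 123 CPM in naive libraries. The log2 change of Sdhb was 0.30 in SCI and 0.33 in sham (SE 0.06 each, edgeR adjusted p = 0.000838 and 0.000397). The membrane anchors also rose: Sdhd had log2 changes of 0.31 in SCI and 0.40 in sham, and Sdhc had 0.20 in each. The Sdhc call in SCI was lost without naive 2 (edgeR adjusted p = 0.0562) or SCI 2 (0.0507), and in sham without naive 2 (0.0527).

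Complex III passes electrons from ubiquinol to cytochrome c. Uqcrh, the hinge protein beside cytochrome c1, had 237, 231 and 249 CPM in SCI libraries and 218, 256 and 289 CPM in sham libraries, against 132, 140 and 133 CPM in naive libraries. All 6 SCI and sham values lay above the naive ones, and the log2 change was 0.82 in SCI and 0.91 in sham (SE 0.09 each, edgeR adjusted p = 1.08e-05 and 4.04e-06). Uqcr10, a small subunit of the complex, rose by 0.83 and 0.90, Uqcrq, a further small subunit, by 0.39 and 0.50, and Uqcrb, the ubiquinone-binding protein, by 0.23 and 0.29. The SCI call of Uqcrb was lost without naive 1, naive 3, SCI 2 or SCI 3 (edgeR adjusted p up to 0.0658).

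The remaining members of complex III are the Rieske protein and the core proteins. Uqcrfs1, the Rieske iron-sulfur protein and a catalytic subunit, had 135, 136 and 138 CPM in SCI libraries and 145, 143 and 142 CPM in sham libraries, against 146, 141 and 131 CPM in naive libraries. Naive values overlapped both groups, and the log2 changes of -0.03 in SCI and 0.04 in sham did not pass (edgeR adjusted p = 0.686 and 0.619). Uqcrc2, a core protein, had log2 changes of -0.06 and -0.04 (adjusted p = 0.509 and 0.661, edgeR). Uqcrc1, the other core protein, had 268, 287 and 292 CPM in SCI libraries and 327, 302 and 284 CPM in sham libraries, against 253, 263 and 248 CPM in naive libraries. Its log2 change passed in sham (0.26, edgeR adjusted p = 0.00749) and not in SCI (0.15, 0.0917), and the difference of -0.11 between SCI and sham did not pass. In SCI, Uqcrc1 passed without sham 1 (adjusted p = 0.0414) or sham 3 (0.0336).

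Complex IV, cytochrome c oxidase, passes electrons to oxygen, and its nuclear-encoded subunits surround a core made from mitochondrial DNA. Cox5b, a zinc-binding subunit on the matrix side, had 248, 262 and 263 CPM in SCI libraries and 258, 265 and 299 CPM in sham libraries, against 133, 151 and 150 CPM in naive libraries. The groups did not overlap the naive one, and the log2 change was 0.83 in SCI and 0.92 in sham (SE 0.08 each, edgeR adjusted p = 3.26e-06 and 1.25e-06). Cox7c, a small membrane subunit, rose by 0.91 and 0.94 on the log2 scale. Cox4i1, the common form of the regulatory subunit 4, had 566, 562 and 588 CPM in SCI libraries and 593, 611 and 687 CPM in sham libraries, against 420, 434 and 419 CPM in naive libraries. The log2 change of Cox4i1 was 0.43 in SCI and 0.57 in sham (SE 0.07 each, edgeR adjusted p = 0.000304 and 2.96e-05).

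Several complex IV subunits exist as tissue isoforms. Cox6a1, the common form, had 499, 537 and 556 CPM in SCI libraries and 582, 538 and 638 CPM in sham libraries, against 299, 289 and 312 CPM in naive libraries, with log2 changes of 0.82 and 0.96 (SE 0.08 each). Cox8a, the common subunit 8, rose by 0.68 in SCI and 0.76 in sham, and the first Cox6b1 identifier (ENSRNOG00000024309) by 0.72 and 0.75. The second Cox6b1 identifier (ENSRNOG00000034161) had 33.7, 36.9 and 39.7 CPM in SCI libraries and 39.7, 36.9 and 43.2 CPM in sham libraries, against 29.8, 31.9 and 34.3 CPM in naive libraries. It passed in sham (log2 change 0.32, edgeR adjusted p = 0.0066) and not in SCI (0.20, 0.0697), where SCI overlapped naive, and reads of 2 near copies may be shared between these identifiers. In SCI, Cox6b1 (ENSRNOG00000034161) passed under upper-quartile scaling (edgeR adjusted p = 0.0468), without sham 3 (0.0357) and without SCI 1 (0.0361). Cox7a2, the common subunit 7a, had 91.2, 91.1 and 91.2 CPM in SCI libraries and 73.4, 93.4 and 117 CPM in sham libraries, against 68.4, 74.5 and 65.3 CPM in naive libraries, and sham 1 overlapped naive. Its log2 changes of 0.39 and 0.45 passed, and the SCI call was lost without naive 1 (edgeR adjusted p = 0.0534) or naive 3 (0.0725). Cox7a2l, a paralog that joins complexes III and IV into supercomplexes, rose by 0.23 and 0.32. Cox5a, a matrix-side subunit, rose by 0.25 and 0.39, and its SCI call was lost without naive 3 (edgeR adjusted p = 0.061) or SCI 3 (0.0506).

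The scarcest members, just inside the level of the rule, were isoforms too. Cox6b2, known as a testis form, had 3.62, 2.42 and 3.00 CPM in SCI libraries and 2.61, 2.38 and 3.08 CPM in sham libraries, against 1.30, 1.92 and 1.73 CPM in naive libraries, and Cox4i2, known as a lung form, had 3.03, 3.21 and 3.41 CPM in SCI libraries and 2.76, 3.45 and 4.86 CPM in sham libraries, against 2.42, 1.54 and 2.12 CPM in naive libraries. Both rose against naive in SCI (log2 changes 0.88 and 0.67) and in sham (0.70 and 0.85). The SCI call of Cox4i2 was lost without naive 2 (edgeR adjusted p = 0.0968) or SCI 3 (0.0671), and the sham call of Cox6b2 without naive 1 (0.0516). Just outside the level stood Cox6a2, the heart and muscle form, with 0.43, 0.35 and 0.55 CPM in SCI libraries and 0.92, 1.31 and 0.79 CPM in sham libraries, against 0.40, 0.35 and 0.42 CPM in naive libraries. Cox6a2 rose in sham against naive (log2 change 1.34, SE 0.28, edgeR adjusted p = 0.00156) and not in SCI (0.19, 0.662), and the difference of -1.15 between SCI and sham did not pass. The 13 skeletal muscle markers tested summed to 87.7 ± 19.0 CPM in SCI, 155 ± 11.4 CPM in sham and 92.0 ± 21.7 CPM in naive ganglia (SD, n = 3 each); 10 of the 13 rose in sham against naive, where 24.7% of all genes did, and their part in the Cox6a2 values was not tested. Cox8b, the muscle form of subunit 8, reached the level in naive 3 alone, with 1.77 CPM. Of the other 9 identifiers outside the level, Ndufa1, Cox6c1, Ndufb4l1 and 1 Atp5f1 identifier are listed at 0 in every library; Ndufa1 and Atp5f1 encode subunits that every respiring cell uses.

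**Figure D3:**
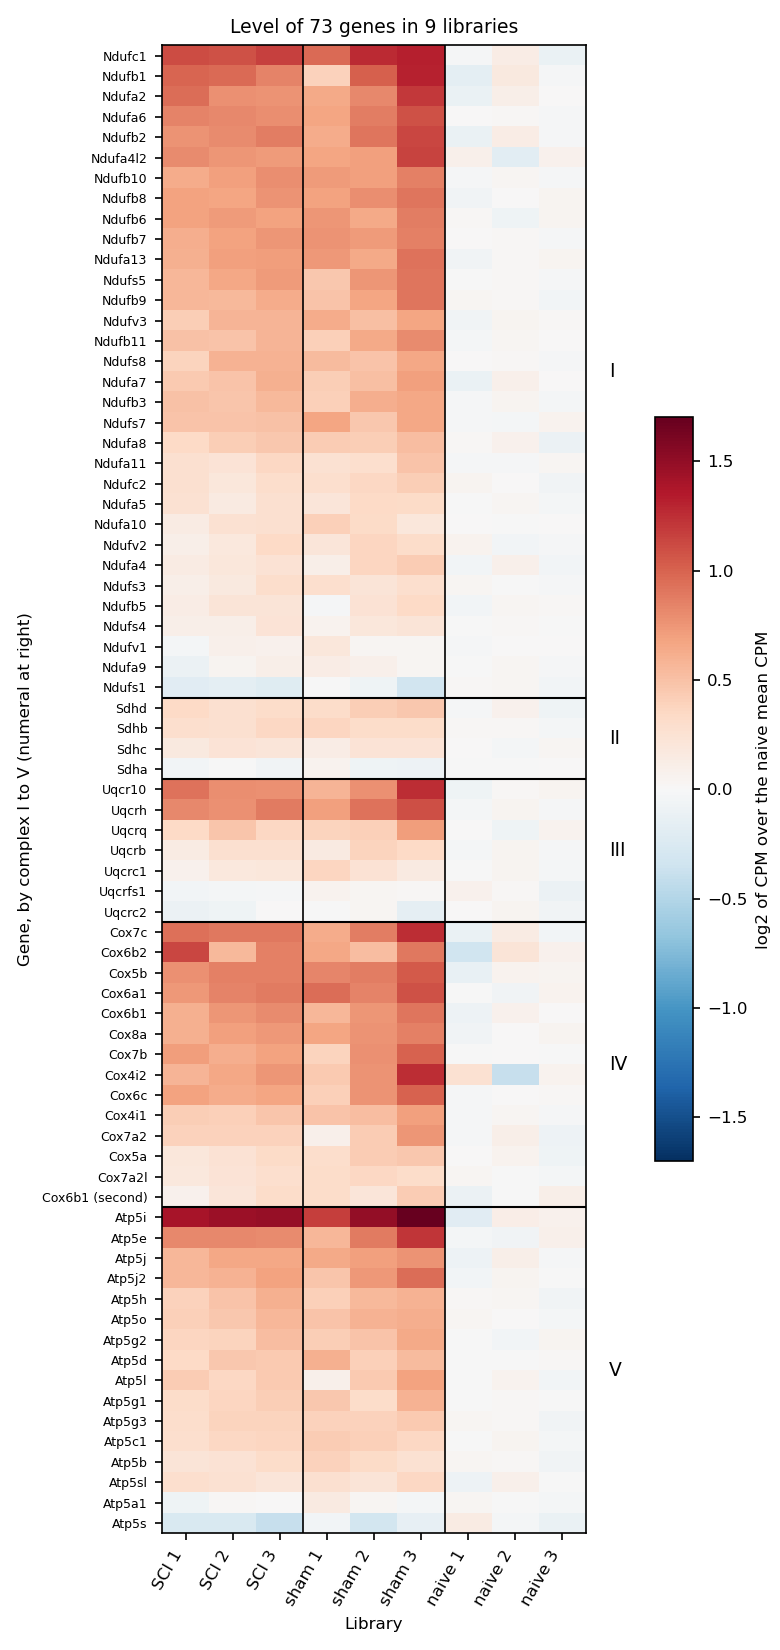
Level of 73 of the 74 members in each of the 9 libraries, as log2 of its CPM over its mean CPM in the 3 naive libraries, grouped by complex I to V. Red is above and blue below the naive mean; sham 3 was the highest of the 9 libraries for 49 of all 74 members, and Ndufs1 and Atp5s are blue in all 3 SCI libraries.

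Complex V has a rotating head, F1, and a membrane ring with a stalk, Fo. Atp5i, the e subunit that helps pair ATP synthases into dimers, showed the largest change of any member in both comparisons. It had 176, 183 and 185 CPM in SCI libraries and 150, 187 and 218 CPM in sham libraries, against 58.2, 71.8 and 70.0 CPM in naive libraries. The lowest sham library was above the highest naive library, and the log2 change was 1.44 in SCI and 1.47 in sham (SE 0.12 each, edgeR adjusted p = 1.45e-06 and 1.02e-06). Atp5j, the coupling factor of the stalk, rose by 0.63 and 0.70, and Atp5o, which links the stalk to the head, rose by 0.48 and 0.56. The c subunit of the ring is made as the same mature protein from 3 genes, and all of them rose: Atp5g1 by 0.37 and 0.46, Atp5g2 by 0.42 and 0.52, and Atp5g3 by 0.35 and 0.41 in SCI and in sham.

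In the F1 head, Atp5a1, the alpha subunit, had 710, 759 and 754 CPM in SCI libraries and 827, 767 and 729 CPM in sham libraries, against 765, 746 and 732 CPM in naive libraries. The groups overlapped and the log2 changes of -0.01 and 0.05 did not pass (edgeR adjusted p = 0.892 and 0.577). Its catalytic partner Atp5b, the beta subunit, had 1677, 1714 and 1797 CPM in SCI libraries and 1898, 1802 and 1728 CPM in sham libraries, against 1477, 1463 and 1390 CPM in naive libraries. The log2 change of Atp5b was 0.26 in SCI and 0.33 in sham (SE 0.07 each, edgeR adjusted p = 0.0109 and 0.00261), and the SCI call was lost without naive 3 (0.0728) or SCI 3 (0.0575). Atp5e and Atp5d, the epsilon and delta subunits of the central stalk, rose by 0.82 and 0.41 in SCI and by 0.91 and 0.52 in sham. Atp5s was the member that fell, with 13.6, 13.6 and 12.5 CPM in SCI libraries and 15.8, 13.2 and 14.8 CPM in sham libraries, against 18.0, 15.9 and 15.1 CPM in naive libraries. The SCI libraries lay below the naive ones, and the log2 change was -0.30 (SE 0.10, edgeR adjusted p = 0.0193) in SCI and -0.16 in sham (0.198); the SCI call was lost without naive 1 (0.0968) or SCI 3 (0.0743). Atp5s is listed by RefSeq as Dmac2l and is not a core part of the enzyme. Without Atp5s and Atp5sl, 13 of 14 complex V members rose in SCI (median log2 change 0.42) and in sham (0.52). Among all genes, 23.9% and 24.7% were called higher.

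**Figure D4:**
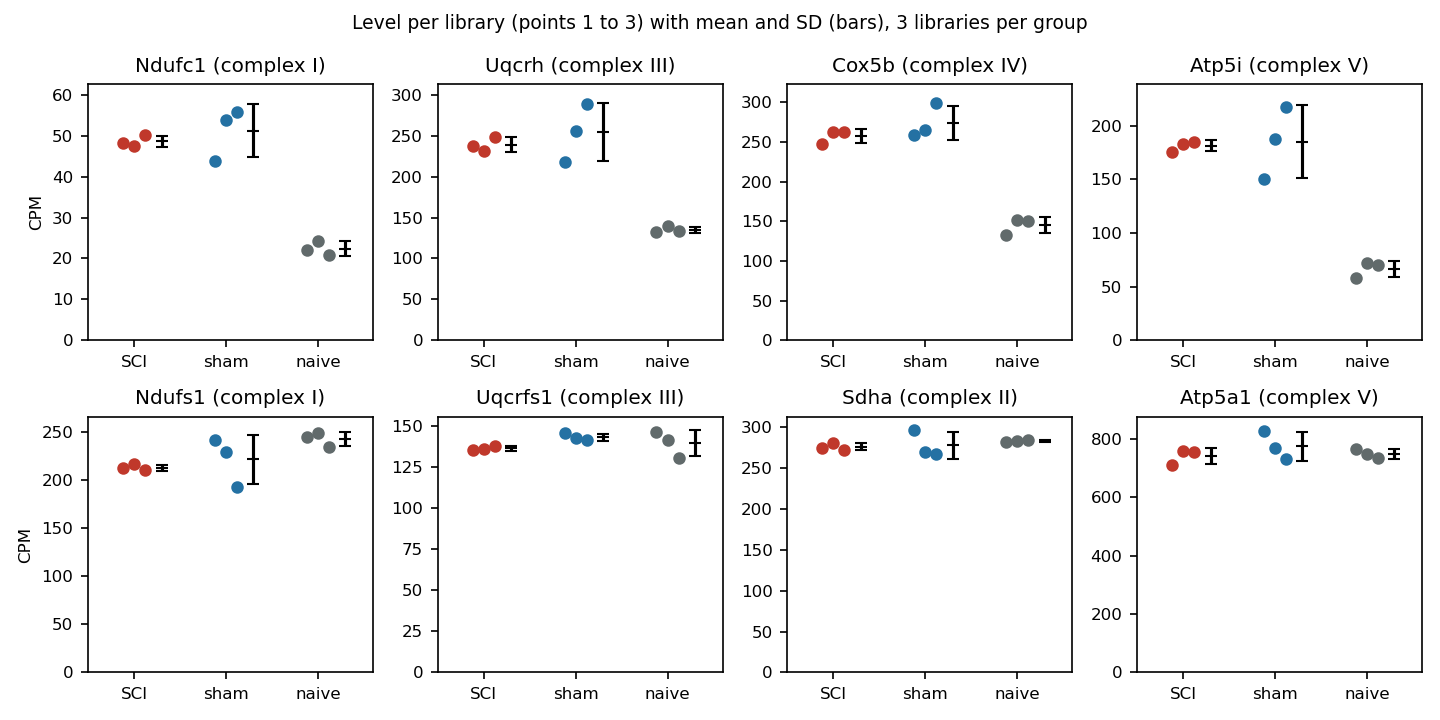
CPM in each library, with mean and SD bars (n = 3 libraries per group), for 4 members that rose in SCI and in sham against naive (top row) and 4 that passed in neither comparison (bottom row). In the top row no naive library reaches an SCI or sham library; in the bottom row sham 3 holds the lowest value of Ndufs1, 193 CPM.

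Between SCI and sham ganglia no member passed. With edgeR 0% of the 16627 genes were called in either direction; at an unadjusted p under 0.05, 0 members stood beside 526 genes (3.16%), and DESeq2 called 0 members and 9 genes (0.0541%). The log2 change was negative for 72 of 74 members, where 50.3% of all genes were negative, with a median of -0.07 over members and a range from -0.19 to 0.18. The median SE was 0.07, as large as the median change, and the smallest unadjusted p, 0.0702, belonged to Cox5a. SCI lay wholly below sham for 4 members, Uqcrfs1, Cox4i1, Cox7a2l and Atp5g3 (5.41%, where 3.11% of all genes did so). A p that misses the threshold does not show that the groups are alike.

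The sign count rested in part on sham 3. Without sham 3 the log2 change of SCI against sham was negative for 46 members and positive for 28, with a median of -0.03, and without sham 1 the median was -0.12. Sham 3 was the highest sham library for 53 of 74 members and sham 1 the lowest for 44. The median coefficient of variation over members was 3.91% in SCI, 7.94% in sham and 3.36% in naive libraries. The sham libraries also differed in neuronal markers, whose summed level was 30507 CPM in sham 1 and 21122 CPM in sham 3, beside 23686 ± 279 CPM in SCI ganglia (SD, n = 3), and the part of this in the members' values was not tested.

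Markers of the cells in a ganglion moved between the groups. The 8 sensory neuron markers summed to 23686 ± 279 CPM in SCI, 25257 ± 4791 CPM in sham and 21879 ± 434 CPM in naive ganglia (SD, n = 3 each). All 8 passed the low-count filter; Prph rose and Scn10a fell in SCI against naive, and Prph and Calca rose and Scn10a fell in sham against naive. The 4 satellite glia markers summed to 7146 ± 597 CPM in SCI, 7406 ± 1185 CPM in sham and 3830 ± 37.3 CPM in naive ganglia. Of these 4, 3 were called higher in each comparison with naive, and 1 had a negative log2 change in sham. The 5 Schwann cell markers summed to 19583 ± 2272 CPM in SCI, 18801 ± 2068 CPM in sham and 29498 ± 891 CPM in naive ganglia. Of these 5, 3 were called lower and 1 higher in each comparison with naive. Among all genes, 23.9% were called higher and 24.6% lower in SCI, and 24.7% and 25.9% in sham. No summed level of satellite glia or Schwann cell markers in an SCI or sham library reached into the naive range, and the part of these shifts in the respiratory chain values was not tested. Macrophage markers summed to 419 ± 18.3 CPM in SCI and 392 ± 65.3 CPM in sham ganglia, against 249 ± 31.9 CPM in naive ganglia, and pericyte and smooth muscle markers to 207 ± 8.24, 223 ± 36.1 and 174 ± 3.69 CPM. In the same order of groups, endothelial markers summed to 58.4, 59.4 and 52.2 CPM and erythrocyte markers to 526, 406 and 708 CPM. Adipocyte markers summed to 32.4, 31.4 and 23.7 CPM, and their naive sums ran from 16.6 to 36.5 CPM. Of the 4 adipocyte markers tested, 3 had a negative and 1 a positive log2 change in each comparison with naive.

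Other genes of the pathway were counted beside the members. Of all genes tested, 23.9% were called higher and 24.6% lower in SCI against naive, and 24.7% higher and 25.9% lower in sham against naive. Of 43 assembly factors, which build the complexes, 23 rose and 2 fell in SCI against naive (median log2 change 0.25), and 25 rose and 2 fell in sham against naive (0.34). Coa3, a complex IV assembly factor, rose by 0.60 in SCI and 0.71 in sham (edgeR adjusted p = 6.61e-06 and 1.58e-06), Cmc1, another complex IV factor, rose by 0.86 in SCI and 0.62 in sham, and Uqcc2, a complex III factor, rose by 0.91 in SCI and 0.94 in sham. Of 13 citrate cycle enzymes, which feed electrons to the chain, 4 rose and 1 fell in SCI (median 0.01) and 6 rose and 1 fell in sham (median 0.06). Idh3g and Suclg1, subunits of isocitrate dehydrogenase and succinyl-CoA ligase, rose by 0.37 and 0.36 in SCI and by 0.41 each in sham, against naive. Of 12 regulators of mitochondrial genes, 2 rose and 4 fell in each comparison, with medians of -0.17 in SCI and -0.08 in sham. Esrrg, a nuclear receptor, fell by 0.96 in SCI and by 0.92 in sham on the log2 scale (edgeR adjusted p = 1.51e-05 and 1.72e-05). Tfb2m, a mitochondrial transcription factor, fell by 0.39 in SCI and by 0.31 in sham, and Esrra, a related receptor, rose by 0.32 in SCI and by 0.42 in sham. Cyc1, the cytochrome c1 of complex III, and Atpif1, the inhibitor of ATP synthase, lie outside the symbol rule; Cyc1 rose by 0.39 and 0.50 and Atpif1 by 0.34 and 0.47 in SCI and in sham, and 3 of the 4 such identifiers tested rose in each. None of these lists had a member called in SCI against sham by edgeR. The 13 genes encoded in mitochondrial DNA matched no symbol in the table and were not analysed here.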

How the data were processed

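The authors deposited whole-number RNA-seq counts per gene. The tools named in the submitters' processing notes are TopHat2, HTSeq, Trimmomatic, FastQC and DESeq2, without versions; the genome build was not given in the sources used here. Per the labels' protocols a TruSeq kit was used; no label says that strand was counted. Groups came from the sample titles, 3 libraries each; the labels call these biological replicates. Counts as deposited were fitted in R 4.3.3 with edgeR 4.0.16 (TMM scaling, filterByExpr, quasi-likelihood test, 9 libraries in 1 fit with 6 residual degrees of freedom, Benjamini-Hochberg over 16627 genes), with DESeq2 1.42.0 and limma 3.58.1 (voom) as alternatives. The fit was tested on simulated data. CPM values use TMM-scaled totals and are not divided by gene length, so levels are compared within a gene. Library totals ran from 16724878 to 32060538 counts, and both depth and the spread between libraries limit the precision. Replicate libraries differed by more than sampling noise. The chi-square per degree of freedom was 12.6 to 40.1 within sham, 3.05 to 7.82 within SCI and 3.78 to 5.08 within naive libraries. The 9 libraries share 1 estimate of the spread per gene, so leaving out a sham library can also change calls of SCI against naive. Members, gene lists and markers were chosen with earlier results of these data known, so no list has a test of its own. Named members are the 3 called with the smallest p per complex and direction, the smallest p per complex in SCI against sham, tissue isoforms, complex II and catalytic subunits; those beyond this (Ndufa2, Ndufa6, Ndufb1, Cox7c, Atp5e, Ndufa9, Ndufb5, Ndufs3, Ndufs4, Ndufs8, Ndufv2, Uqcrb, Uqcrc2) were chosen after their values were seen. From other lists the 2 called genes with the smallest p per comparison are named. Promoter sequences are RefSeq's on GRCr8; protein lengths were not used here. The values of 1 member are not reported here by name; it is kept in the counts and medians.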

Additional observations from a re-analysis of the deposited data

How the results depend on the processing

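Scaling by RLE factors, upper quartiles or library totals, another low-count filter, DESeq2, limma-voom and a fit of only the groups compared left the counts of members called higher against naive within 1.5 times of 61 in SCI and 64 in sham. Leaving out each library in turn gave 53 (without naive 3) to 66 (without sham 3) members higher and 0 to 2 lower in SCI against naive, and 0 to 1 lower in sham against naive. The count lower in SCI against naive was 2 when only the groups compared were fitted. In that fit Ndufs1 was also called lower, and Ndufa4, Ndufb5, Ndufs4, Uqcrc1 and the second Cox6b1 identifier were called higher, for 66 in all. The shares of all genes called higher or lower in these alternatives are not given here. The moves of the members' counts therefore cannot be set beside those of all genes. Leaving out Atp5s, Atp5sl and the second Cox6b1 identifier, an alternative chosen after seeing the data, gave 0 lower and a median log2 change of 0.48 in SCI against naive; the medians of the other comparisons moved by less than the spread between libraries. Scaling moved the median log2 change of all genes by less than 0.1.

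No label says that the replicate numbers pair the libraries. Deviations of same-numbered libraries from their group means had correlations of -0.095 to 0.124, and not every library correlated best with its own number. With 3 libraries per group, these correlations cannot show whether same-numbered libraries share an origin. With the replicate number as a block, 63 members were higher and 1 lower in SCI against naive, 64 and 0 in sham against naive, and none passed in SCI against sham. The share of all genes called in the block fit is not given here.

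Signs were followed by setting for the named members only, and in SCI against sham without those chosen after their values were seen. Other members changed sign too: without sham 3, 28 of all members were positive in SCI against sham, beside 2 in the main fit. Among the members followed, the changes of sign were those of values that did not pass the test, and the cause was not tested. By setting, these were 0.0035 for Atp5a1 in SCI against naive under upper-quartile scaling, and in SCI against sham -0.0058 (RLE scaling) and -0.0055 (DESeq2) for Sdhc and 0.011 for Sdha (library totals). Leaving out 1 library at a time gave log2 changes of -0.037 to 0.017 for Atp5a1, -0.027 to 0.070 for Ndufa9 and -0.086 to 0.0029 for Uqcrfs1 in SCI against naive, and of -0.0066 to 0.10 for Atp5a1, -0.086 to 0.0058 for Sdha, -0.075 to 0.021 for Uqcrc2 and -0.013 to 0.077 for Uqcrfs1 in sham against naive. In SCI against sham the ranges were -0.16 to 0.10 for Atp5i, -0.39 to 0.065 for Cox4i2, -0.12 to 0.056 for Cox6b1 (ENSRNOG00000024309), -0.21 to 0.13 for Cox7a2, -0.19 to 0.082 for Ndufa4l2, -0.15 to 0.0092 for Ndufs1, -0.088 to 0.00034 for Ndufv1, -0.040 to 0.040 for Sdha, -0.033 to 0.020 for Sdhc, -0.21 to 0.15 for Uqcr10 and -0.19 to 0.0092 for Uqcrh.

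With 3 libraries per group, a difference the size of its SE is not detectable. The description of protein length beside log2 change was not run.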
